A study of Mus musculus with 5 samples.

Results

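The growth arrest genes Cdkn1a, Gadd45a, Gadd45b and Gadd45g, with Ccnd1 and Mdm2 as their partners in cell cycle control, were followed through fasting in mouse hepatocytes. These 6 genes, of 32285 in the deposited table, were taken by symbol, and each symbol named 1 row. The set was chosen by measured values: Cdkn1a had been seen to be over 100-fold higher, and Gadd45a lower, in the 8 h library than in the fed one. Those values describe the choice and support nothing. Hepatocytes came from male mice of strain C57BL/6J, genotype WT, on normal chow (lab diet #5053), and were sequenced as single cells with 10x Genomics 3' v3 chemistry. All mice had been trained for 3 days to 16 h without food overnight and 8 h with food by day, and on the last day received chow and water with 20% sucrose. The fed group (0 h) was taken at clock hour 13, after 4 h of feeding. The fasted groups were taken 4, 8, 16 and 24 h after food and sucrose water were withdrawn, at clock hours 17, 21, 5 and 13. Fasting time and clock hour cannot be told apart, except between 24 h and 0 h. Each group was 1 library, and the number of mice in it is not given in the sources used here. No difference below therefore has a replicate check: each one compares libraries, and every interval is a 95% interval for counting error only.

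Cdkn1a encodes p21, an inhibitor of cyclin-dependent kinases that holds cells in G1 and is the best known transcriptional target of p53. It is also induced by stress and hormone signals that do not pass through p53. The Gadd45 proteins are small stress sensors that bind PCNA, CDK1 and the kinase MAP3K4, through which they activate p38 and JNK. In liver, Gadd45b is known for its induction during regeneration, and Gadd45a as a target of p53 and of the integrated stress response. Cyclin D1, encoded by Ccnd1, carries hepatocytes through G1 and is higher around the central vein. Mdm2 is the ubiquitin ligase that degrades p53 and is itself a p53 target.

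Every library held 10000 barcodes and between 40002260 and 68330252 UMIs. A barcode counted as a hepatocyte with 1000 UMIs and 500 genes or more and 2 to 30% of its UMIs from mitochondrial (mt-) genes, which left 7826, 4567, 2716, 9125 and 4576 cells at 0, 4, 8, 16 and 24 h. All 10 hepatocyte markers checked, Alb and Apoa1 among them, reached 5 CPM in each library. The cells differed in depth, with median UMIs of 5408, 12097, 15005, 4391 and 8979 in time order, and in median mt- share, from 9.79% at 8 h to 19.1% at 4 h. Levels are counts per 1000000 non-mitochondrial UMIs (CPM), summed over the hepatocytes of a library, which held 33521626 to 45532684 such UMIs. In the fed library 2.71% of these cells (212) also carried marker transcripts of another cell type, mostly endothelial, against 0.197 to 0.787% in the others.

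Of the 6 genes, 5 have a start-site window in the RefSeq table for GRCm38.p6, and Ccnd1 is named only. The upstream bases of Cdkn1a and the Gadd45 genes are shown because these genes moved in different directions. They are written 5' to 3' on the strand of the gene and end before the exon annotated at that start. Capitals mark matches on either strand to GGGCGG (the GC box), to CCAAT (the CCAAT box), to TATAAA (the TATA box) and to CACGTG (an E-box), and to the p53 half-site by its usual degenerate pattern, which is its own reverse complement. The p53 pattern was added after the first Cdkn1a window had been read.
Cdkn1a, upstream start, chr17:29090729-29090975, plus strand: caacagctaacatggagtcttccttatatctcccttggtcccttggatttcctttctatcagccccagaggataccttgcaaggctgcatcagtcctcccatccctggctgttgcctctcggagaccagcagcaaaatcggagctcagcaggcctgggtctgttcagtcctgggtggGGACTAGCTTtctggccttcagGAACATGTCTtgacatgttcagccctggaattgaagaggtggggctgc
Cdkn1a, downstream start, chr17:29093519-29093768, plus strand: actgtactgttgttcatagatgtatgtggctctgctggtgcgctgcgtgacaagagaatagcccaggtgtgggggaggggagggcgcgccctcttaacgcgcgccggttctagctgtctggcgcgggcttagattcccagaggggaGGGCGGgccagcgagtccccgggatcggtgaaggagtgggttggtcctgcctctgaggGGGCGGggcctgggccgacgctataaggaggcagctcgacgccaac
Gadd45a, chr6:67037458-67037657, minus strand: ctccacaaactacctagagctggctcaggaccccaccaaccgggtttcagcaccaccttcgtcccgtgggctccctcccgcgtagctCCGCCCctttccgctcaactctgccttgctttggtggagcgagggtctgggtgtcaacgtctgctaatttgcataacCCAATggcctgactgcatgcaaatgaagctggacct
Gadd45b, chr10:80929841-80930072, plus strand: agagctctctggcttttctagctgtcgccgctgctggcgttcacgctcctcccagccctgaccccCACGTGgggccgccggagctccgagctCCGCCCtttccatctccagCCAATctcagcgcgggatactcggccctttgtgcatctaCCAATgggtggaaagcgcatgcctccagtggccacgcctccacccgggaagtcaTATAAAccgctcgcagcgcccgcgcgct
Gadd45g, chr13:51846425-51846674, plus strand: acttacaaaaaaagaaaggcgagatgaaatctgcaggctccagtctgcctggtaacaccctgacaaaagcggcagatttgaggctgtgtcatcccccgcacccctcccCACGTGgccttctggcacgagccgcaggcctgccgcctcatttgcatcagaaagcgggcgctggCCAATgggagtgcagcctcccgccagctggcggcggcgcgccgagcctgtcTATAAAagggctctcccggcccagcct

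The upstream start of Cdkn1a carried 2 p53 half-sites at most 13 bases apart. Such a pair occurred in 21 of 32851 windows of 250 bases (0.0639%), and a single half-site in 7.13%. The downstream start of Cdkn1a held 2 matches to GGGCGG, which 32.7% of all windows contain. Gadd45b and Gadd45g shared a TATA box (12.4% of windows), a CCAAT box (33.8%) and the E-box (6.02%) that clock and Myc proteins bind. Gadd45a had a CCAAT box and a GC box, and neither of the other 2. Its only p53 half-site lies in 50 bases that another GENCODE model annotates as exonic and that are not printed. No match was found in the printed windows to AGGTCA, the nuclear receptor motif (14.02% of all windows), to GTAAACA, the FoxO motif (3.17%), to TGACGTCA, the cyclic AMP motif (1.55%), or to TGATGNAAT, the ATF4 motif (0.816%). The matches did not overlap each other. The Mdm2 window, which is not printed, held 2 GC boxes, 1 CCAAT box, 1 match to the FoxO motif and 1 p53 half-site. A match is a run of letters and not a measured site, and the 3' counts do not tell which Cdkn1a start was used. The genes lie at chr17:29090976-29100727 (Cdkn1a), chr6:67035096-67037457 (Gadd45a), chr10:80930073-80932204 (Gadd45b), chr13:51846678-51848468 (Gadd45g), chr7:144929931-144939925 (Ccnd1) and chr10:117688875-117710758 (Mdm2) in GENCODE M21 for GRCm38.

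The first comparison set each fasted library against the fed one. Cdkn1a was 30.5-fold higher at 4 h and 102-fold higher at 8 h, and Gadd45a and Ccnd1 were lower at both times. Gadd45g, and not Gadd45a, was near its fed level through 8 h and low from 16 h on. Gadd45b was higher at 8 h from a low level, and Mdm2 summed over cells stayed within 1.21-fold of the fed library at every time.

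**Figure D1:**
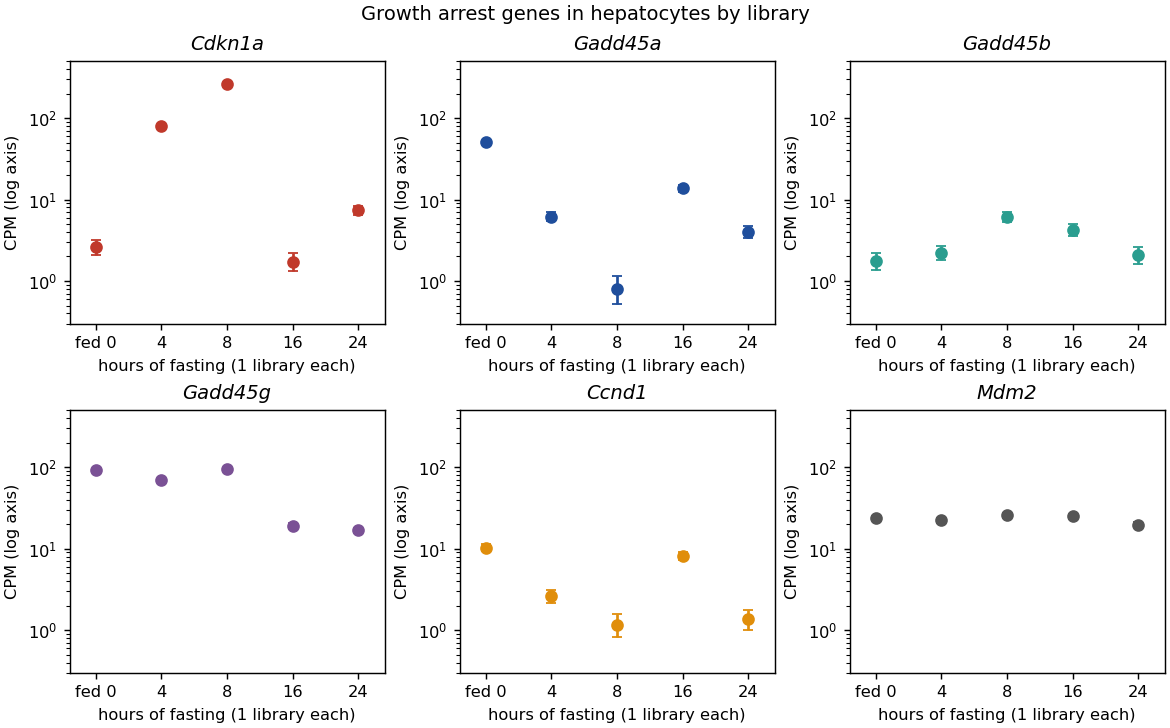
CPM of each growth arrest gene (log axis) in the hepatocytes of the 5 libraries by hours of fasting, with 1 point per library and bars for the exact Poisson 95% interval. Cdkn1a stood at 264 CPM at 8 h and 1.73 CPM at 16 h, Gadd45a had its lowest point, 0.798 CPM, at 8 h, and Mdm2 lay between 19.7 and 25.7 CPM in all libraries.

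At 0, 4, 8, 16 and 24 h Cdkn1a was measured at 2.59, 79.2, 264, 1.73 and 7.34 CPM, on 98, 3607, 8938, 58 and 276 UMIs. Only the 4 and 8 h libraries were high, and the fed and 16 h libraries were the lowest. Against the fed library the log2 ratios at 4, 8, 16 and 24 h were 4.93 [4.64, 5.24], 6.67 [6.38, 6.97], -0.58 [-1.08, -0.10] and 1.502 [1.16, 1.85], with 95% intervals in brackets. The 16 h ratio was -0.45 [-0.98, 0.06] without barcodes carrying markers of other types and -0.05 with thinning, so that library was not set apart from fed. From 4 to 8 h the level was 3.34-fold higher (log2 1.74), and from 8 to 16 h it was 153-fold lower (log2 -7.25). At 24 h it was again 4.24-fold above 16 h (log2 2.09). The 24 and 0 h libraries share their clock hour, and there Cdkn1a was 2.83-fold higher after fasting.

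At 8 h most hepatocytes held a Cdkn1a UMI. The median hepatocyte at 8 h held 3 Cdkn1a UMIs, the cell at the 90th percentile 7 and the highest 14. With each cell thinned to 1000 non-mitochondrial UMIs, a Cdkn1a UMI was found in 0.230, 7.23, 22.8, 0.211 and 0.765% of cells in time order, with an interval of 21.2 to 24.5% at 8 h. Without thinning the shares were 1.02, 43.4, 84.5, 0.592 and 5.53%. For comparison, 2 of 16 endothelial-like barcodes at 8 h had one after thinning (12.5%, 1.55 to 38.3), at a median depth of 1645 non-mitochondrial UMIs against 13532 in hepatocytes. Summed over these 16 barcodes, Cdkn1a was at 244 CPM (98.3 to 504) on 7 UMIs, against 264 CPM in hepatocytes. Barcodes under 1000 UMIs carried Cdkn1a at 116 CPM at 8 h, and the part of free RNA in these shares was not tested. The 10% of cells with most Cdkn1a UMIs held 26.1% of them. Level depended little on depth at 8 h: of 4 equal groups of cells by UMIs, the shallowest had 240.0 CPM and the deepest 262 CPM. Split by mt- share, the 4 groups lay between 255 and 269 CPM.

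**Figure D2:**
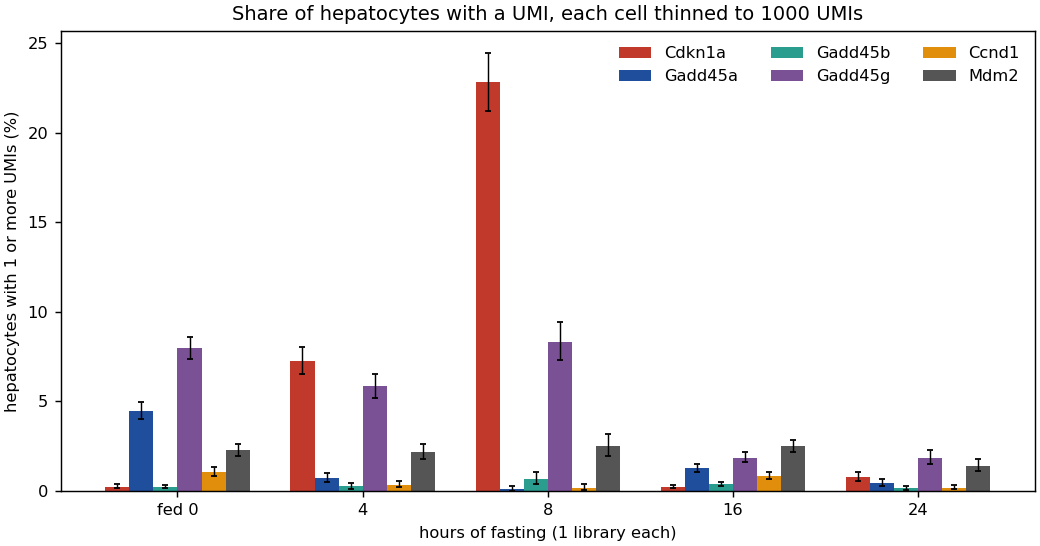
Share of hepatocytes with at least 1 UMI of each gene (percent) after thinning every cell to 1000 non-mitochondrial UMIs, by hours of fasting, with 1 library per time and bars for the exact Clopper-Pearson 95% interval. The share for Cdkn1a went from 0.230% in fed cells to 22.8% at 8 h, while that for Gadd45a went from 4.46% to 0.0743%.

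Gadd45a, the p53 and stress responsive member of its family, had its highest level in the fed library. In time order it was measured at 50.3, 6.17, 0.798, 13.7 and 4.02 CPM, on 1902, 281, 27, 459 and 151 UMIs. Every fasted library lay below the fed one, and the 8 and 24 h libraries lay below their neighbours. Its log2 ratios to fed at 4, 8, 16 and 24 h were -3.03 [-3.21, -2.85], -5.98 [-6.58, -5.43], -1.88 [-2.03, -1.73] and -3.65 [-3.90, -3.41]. At 8 h this was 63.0-fold lower. The level at 16 h was 17.1-fold above that at 8 h (log2 4.10), and at 24 h it was 3.41-fold lower again. Between neighbouring libraries Gadd45a and Cdkn1a differed in opposite directions in each of the 4 steps. The 8 h values of both genes chose the set, so the steps up to and from 8 h describe that choice and support nothing. The same libraries enter both series of values, and 5 libraries are too few for a correlation. The share of thinned cells with a Gadd45a UMI was 4.46, 0.701, 0.0743, 1.26 and 0.415% in time order. The gene overlaps the antisense transcript E230016M11Rik, counted at 0.769 to 2.87 CPM, and whether the counting used strand is not given in the sources used here.

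Gadd45g followed neither of them. Its levels from 0 to 24 h were 92.1, 69.3, 94.3, 18.9 and 16.8 CPM, on 3481, 3157, 3188, 635 and 630 UMIs. The first 3 values were the higher ones and the last 2 the lower, a grouping made after seeing them. Log2 ratios to fed at 4, 8, 16 and 24 h were -0.41 [-0.48, -0.34], 0.03 [-0.04, 0.10], -2.28 [-2.41, -2.16] and -2.46 [-2.58, -2.34]. The 16 h library was 4.98-fold below the 8 h library. Levels at 16 and 24 h were close, with a log2 ratio of -0.18 (-0.34 to -0.01), which was 0.04 when cells were limited to 15% mt- UMIs. A Gadd45g UMI was found in 7.95, 5.83, 8.32, 1.85 and 1.84% of thinned cells.

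Gadd45b, the member induced in regenerating liver, was scarce in all 5 libraries. It reached 1.75, 2.20, 6.18, 4.24 and 2.08 CPM in time order, on 66, 100, 209, 142 and 78 UMIs. By summed CPM, the 8 and 16 h libraries stood above the others, with intervals that did not meet theirs. They differed from fed by log2 ratios of 1.82 [1.42, 2.24] and 1.28 [0.85, 1.72]. The ratios at 4 and 24 h, 0.33 [-0.13, 0.80] and 0.25 [-0.24, 0.74], were within counting error of no difference. After thinning, a Gadd45b UMI was found in 0.217, 0.241, 0.669, 0.355 and 0.131% of cells in time order. The 16 h interval (0.243 to 0.501%) then met those of 0, 4 and 24 h, and the 8 h interval (0.397 to 1.06%) met that of 4 h. With thinning the log2 ratio to fed at 16 h was 0.71. Under the level limit of 5 CPM in either library, only the 8 h comparison counts Gadd45b among the genes changed.

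Ccnd1, the G1 cyclin, was low in hepatocytes and lowest at 8 and 24 h. The 5 libraries held 10.2, 2.59, 1.15, 8.14 and 1.36 CPM, on 387, 118, 39, 273 and 51 UMIs. The fed and 16 h values were the higher ones and the other 3 the lower, a grouping made after seeing them. The 4 fasted libraries in time order had log2 ratios to fed of -1.98 [-2.29, -1.68], -3.15 [-3.66, -2.67], -0.33 [-0.56, -0.10] and -2.92 [-3.37, -2.49]. Ccnd1 and Gadd45a differed in the same direction at each of the 4 steps between neighbouring libraries, and both were opposite to Cdkn1a. The 8 h values of Gadd45a and Cdkn1a had chosen the set.

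Other cells bear on Ccnd1 and on the fed level of Cdkn1a. The fed library had 216 endothelial-like barcodes, and the hepatocyte filter had kept 128 of them. These 128 held 61 of the 387 Ccnd1 UMIs of fed hepatocytes, at 253 CPM (194 to 325), and 12 of the 98 Cdkn1a UMIs, at 49.8 CPM (25.7 to 87.0). After thinning, a Ccnd1 UMI was found in 19.0% of all 216, against 1.06% of all fed hepatocytes, at median depths of 1718 and 4703 non-mitochondrial UMIs. Without barcodes carrying markers of another type, Ccnd1 was at 7.81, 2.35, 1.04, 7.80 and 1.12 CPM in time order, so that the log2 ratio at 16 h was -0.0024. The same restriction gave Cdkn1a 2.17, 79.1, 264, 1.58 and 7.29 CPM. The Ccnd1 gene also overlaps the 3' end of LTO1 on the other strand, counted at 4.72 to 8.71 CPM.

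Mdm2, a p53 target as Cdkn1a is, differed little between libraries, and the part of p53 in these levels was not tested. Its 5 levels were 23.7, 22.2, 25.7, 25.1 and 19.7 CPM, on 897, 1010, 870, 840 and 739 UMIs. The 24 h library was the lowest and the 8 h library the highest, and neighbouring values in that order lay within each other's counting error or close to it. Mdm2 had log2 ratios to fed of -0.10 [-0.23, 0.03], 0.12 [-0.02, 0.25], 0.08 [-0.06, 0.22] and -0.27 [-0.41, -0.13] at 4, 8, 16 and 24 h. With cells thinned to 1000 UMIs the 24 h ratio was -0.72, and a Mdm2 UMI was then found in 2.26% of fed cells (1.94 to 2.62) and 1.40% at 24 h (1.08 to 1.78). At 4 h its sign turned with scaling, to 0.12 with the trimmed mean of M-values (TMM).

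Counted over the set, 1 of the 5 genes at 5 CPM or more in either library was at least 2-fold above fed at 4 h (Cdkn1a), where 3.75% of all genes were, and 2 were at least 2-fold below (Gadd45a, Ccnd1), where 6.72% were. At 8 h, the contrast that chose the set, 2 of 6 were above (Cdkn1a, Gadd45b; 5.54% of all genes) and 2 below (Gadd45a, Ccnd1; 11.8%). At 16 h none of 4 was above (3% of all genes) and 2 were below (Gadd45a, Gadd45g; 4.18%). At 24 h 1 of 5 was above (Cdkn1a; 4.92%) and 3 were below (Gadd45a, Gadd45g, Ccnd1; 9.39%). The median gene had log2 ratios of -0.11, -0.09, -0.03 and -0.11 in time order, and of 0.11, 0.15, 0.03 and 0.07 with TMM scaling. That shift moved the split of all genes from 332 higher and 594 lower to 531 and 361 at 4 h, and from 492 and 1048 to 838 and 676 at 8 h. The counts of the set against fed were the same with TMM.

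Between neighbouring times, 8 h was compared with 4 h over 5 members at 5 CPM or more in either library. It stood at least 2-fold above 4 h for Cdkn1a and Gadd45b (1.21% of all genes higher) and below it for Gadd45a (2.43% lower). From 8 to 16 h, over 6 members, Gadd45a and Ccnd1 were at least 2-fold higher (10.8% of all genes) and Cdkn1a and Gadd45g lower (7.01%). The 8 h values of Cdkn1a and Gadd45a chose the set, so their calls in the comparisons with 8 h support nothing. From 16 to 24 h, over 5 members, Cdkn1a was higher (5.17%) and Gadd45a and Ccnd1 were lower (5.99%).

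The set was then placed along the axis of the liver lobule. Cyp2f2 marks hepatocytes near the portal tract and Cyp2e1 those near the central vein. Within each library cells were ranked by their Cyp2f2 minus their Cyp2e1 level and cut into 5 equal parts. Levels at the ends were 84.1 CPM (Cyp2f2 end) and 46.0 CPM (Cyp2e1 end) for Cdkn1a at 4 h, a log2 ratio of 0.87 (0.68 to 1.06). At 8 h both ends were high, at 279 and 236 CPM, with a log2 ratio of 0.24 (0.14 to 0.35). That difference was -0.26 (-0.64 to 0.12) when each cell was thinned before ranking, so its direction is not settled. Against the matching fed part, Cdkn1a had log2 ratios at 4 h of 5.604 [4.82, 6.52] at the Cyp2f2 end and 3.78 [3.09, 4.55] at the Cyp2e1 end, and at 8 h of 7.33 [6.56, 8.25] and 6.13 [5.47, 6.89]. These rest on 13 and 18 fed UMIs, whose own end ratio of -0.96 [-2.11, 0.15] was 0.82 [-0.79, 2.68] without barcodes carrying markers of other types. How the ends differ in their change from fed is therefore not settled. At 4 h part 3 held 85.9 CPM and part 4 held 62.3 CPM, and the parts differed in depth: part 1 had a median of 13304 non-mitochondrial UMIs and part 4 a median of 2089. Across 4 equal groups of the 4 h cells by UMIs, Cdkn1a ran from 62.2 to 82.2 CPM. Over 6 alternatives, thinning before ranking among them, the 4 h log2 end ratio of Cdkn1a was 0.67 to 0.95. The part of depth in the 4 h difference was not tested.

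**Figure D3:**
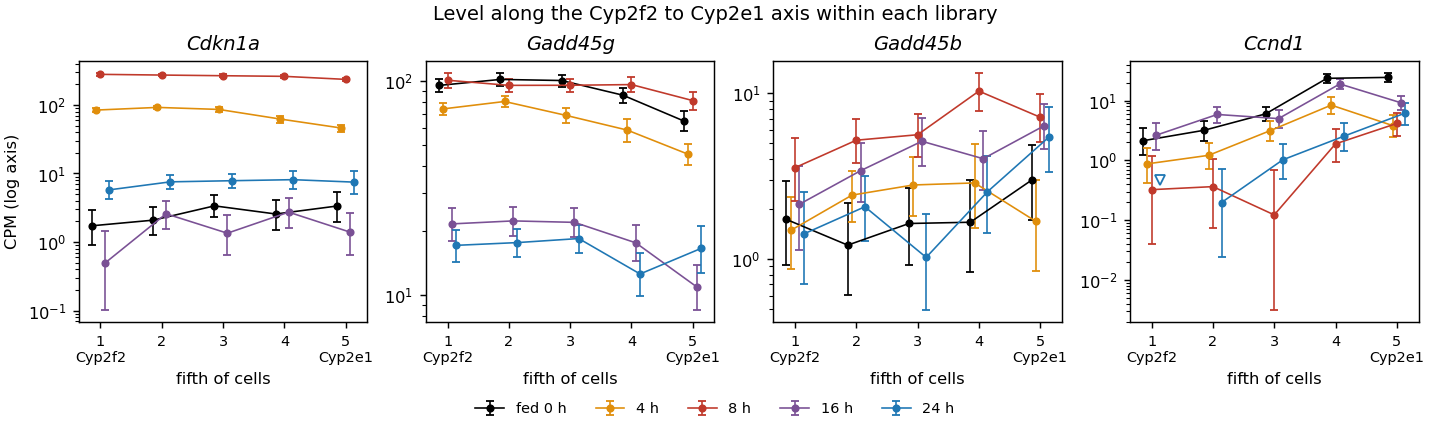
CPM (log axis) of Cdkn1a, Gadd45g, Gadd45b and Ccnd1 in 5 equal parts of the hepatocytes of each library, ranked from the Cyp2f2 end (1) to the Cyp2e1 end (5), with exact Poisson 95% intervals and an open triangle at the upper bound where the count was 0. Cdkn1a and Gadd45g were lower in the last part at 4 h, 46.0 and 45.4 CPM, while fed Ccnd1 was higher there, 24.4 CPM against 2.13 CPM in the first part.

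Gadd45g was higher at the Cyp2f2 end in 4 of 5 libraries. Its log2 ratios of the Cyp2f2 to the Cyp2e1 end at 0, 4, 8 and 16 h were 0.55 [0.37, 0.74], 0.71 [0.51, 0.90], 0.32 [0.14, 0.50] and 0.98 [0.55, 1.42], and that at 24 h was 0.05 [-0.39, 0.50]. Ranked by a score over more landmark genes than Cyp2f2 and Cyp2e1, the 24 h ratio was 0.84 [0.43, 1.27]. Thinned before ranking, the 0 and 4 h ratios were 0.30 [-0.06, 0.67] and 0.59 [-0.01, 1.201]. In the fed library this was 95.3 against 64.9 CPM. Between 4 equal groups of cells by UMIs, from fewest to most, Gadd45g ran from 67.6 to 96.5 CPM when fed and from 59.3 to 73.6 CPM at 4 h. The ends differed in median depth in the same way at both times (4587 against 2403 when fed, 13304 against 3753 non-mitochondrial UMIs at 4 h), and little at 16 h (3336 against 3504). The part of depth in these end differences was not tested. Gadd45a showed no end difference beyond counting error at 0, 4, 16 and 24 h, with 47.5 against 42.7 CPM in the fed library, and at 8 h it had 6 UMIs at one end and 0 at the other. Mdm2 was likewise even at 0 h (24.5 against 23.9 CPM), and at 8 h it was higher at the Cyp2e1 end, 31.6 against 23.1 CPM (log2 -0.46 [-0.79, -0.13], and -0.15 [-0.39, 0.09] with 3 parts). At 24 h it leaned the other way, with 20.3 CPM at the Cyp2f2 end against 15.2 CPM (log2 0.41 [-0.03, 0.87], and 1.45 [0.58, 2.45] with at most 15% mt- UMIs).

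Ccnd1 was the most unequal member. In the fed library it had 2.13 CPM at the Cyp2f2 end and 24.4 CPM at the Cyp2e1 end, a log2 ratio of -3.52 (-4.37 to -2.77), and of -2.87 without barcodes carrying markers of other types. The fed ends differed in median depth (4587 and 2403 non-mitochondrial UMIs). In 4 equal groups of all fed cells Ccnd1 ran from 32.8 CPM with fewest UMIs to 4.47 CPM in the third group, and from 24.99 CPM with the lowest mt- share to 4.69 CPM with the highest, and their part in the end difference was not tested. The end ratio was -2.13 [-3.35, -1.02] at 4 h, -3.68 [-6.82, -1.66] at 8 h on 2 and 22 UMIs, and -1.81 [-2.70, -0.99] at 16 h. The 8 h ratio was 0.00268 [-6.29, 6.30] when cells were thinned before ranking. Part 4 held more than part 5 at 4 h (8.39 against 3.82 CPM) and at 16 h (19.0 against 9.17 CPM). At 24 h there were 0 UMIs at the Cyp2f2 end, which allows up to 0.385 CPM by the limit of 3 counts over that part (0.473 CPM by the exact Poisson bound that the axis plot draws), and 24 UMIs at the other, at 6.20 CPM. The upper 95% bound of that log2 ratio was -3.60. Against the matching fed part, Ccnd1 at the Cyp2e1 end had log2 ratios of -2.68, -2.56, -1.41 and -1.98 in time order. Gadd45b was higher at the Cyp2e1 end at 8 h (3.55 against 7.15 CPM), 16 h (2.13 against 6.37 CPM) and 24 h (1.41 against 5.42 CPM), on 11 to 41 UMIs per end. The 24 h ends also differed in median mt- share (19.5% at the Cyp2f2 end, 8.12% at the other) and in median depth (7974 and 2596 non-mitochondrial UMIs). In 4 equal groups of all 24 h cells Gadd45b was at 4.09 CPM with the lowest mt- share and 0.797 CPM with the highest, and at 5.77 CPM with fewest UMIs and 1.98 CPM with most. The part of these in the 24 h end differences of Gadd45b and Ccnd1 was not tested. The 8 h direction turned with thinning, to a log2 ratio of 1.003 with an interval from -1.80 to 4.47.

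By a 1.5-fold rule at 5 CPM or more at either end, 1 of 4 members measured was unequal in the fed library (Ccnd1; 16.5% of all genes), 2 of 4 at 4 h (Cdkn1a, Gadd45g; 13.7%), 1 of 4 at 8 h (Gadd45b; 12.1%), 3 of 5 at 16 h (Gadd45g, Gadd45b, Ccnd1; 14.5%) and 2 of 5 at 24 h (Gadd45b, Ccnd1; 34.5%). With so few members, the fed, 8 h and 24 h counts are near the share of all genes. With 0 to 30% mt- UMIs allowed, no member was higher at the Cyp2e1 end at 24 h by this rule. Over 6 alternatives the 24 h log2 end ratio of Gadd45b stayed between -1.87 and -1.03, so its call was lost to the level limit. With the same filter 1 member in place of 2 was higher at the Cyp2f2 end at 4 h, where Gadd45g was at 0.34 (log2). Between 19.5% and 40.8% of cells lay within 0.1 of a limit between parts. Cyp2e1 at its own end was at 3928 CPM at 24 h, against 8083 CPM in the fed library, so the ends were ranked on less signal there.

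Within single cells the members were too sparse to pair. At 8 h, after thinning, Gadd45b was found in 8 of 614 cells with a Cdkn1a UMI (1.30%, 0.564 to 2.55) and in 10 of 2077 without (0.481%). Gadd45g was found in 8.79% of the former (6.68 to 11.3) and 8.18% of the latter, and Mdm2 in 2.93% (1.75 to 4.59) and 2.36%.

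The pathways around the set were described from lists of known genes. Whether any of these pathways acted on the set was not tested. Their counts use genes at 5 CPM or more in either library, and the shares of all genes that were 2-fold higher or lower are those given above. Of the p53 pathway list, 24 genes were measured at 4 h, where 4 were higher and 2 lower, and 24 at 8 h, where 2 were higher and 2 lower, with median log2 ratios of 0.05 and 0.10. At 16 and 24 h, 1 of 23 and 3 of 25 were higher and 0 and 4 lower. These counts include Cdkn1a itself at 4, 8 and 24 h. Gadd45a is in neither this list nor that of the integrated stress response, so its lower levels are not counted there. Trp53, which encodes p53, was at 13.9 CPM when fed and 8.10 and 8.84 CPM at 4 and 8 h. Ccng1, a direct p53 target, was at 28.2, 28.0, 28.7, 26.7 and 28.0 CPM in time order. Sesn2, a stress-induced inhibitor of mTORC1, was higher at 4, 8 and 24 h (2.65 CPM fed, 6.24, 8.99 and 11.2 CPM). Trp53inp1, a p53 cofactor, stood at 57.1, 117 and 104 CPM at 0, 4 and 8 h, whereas Fas was lower at 8 h (29.1 to 12.7 CPM) and Tigar at 4 h (15.9 to 7.20 CPM).

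**Figure D4:**
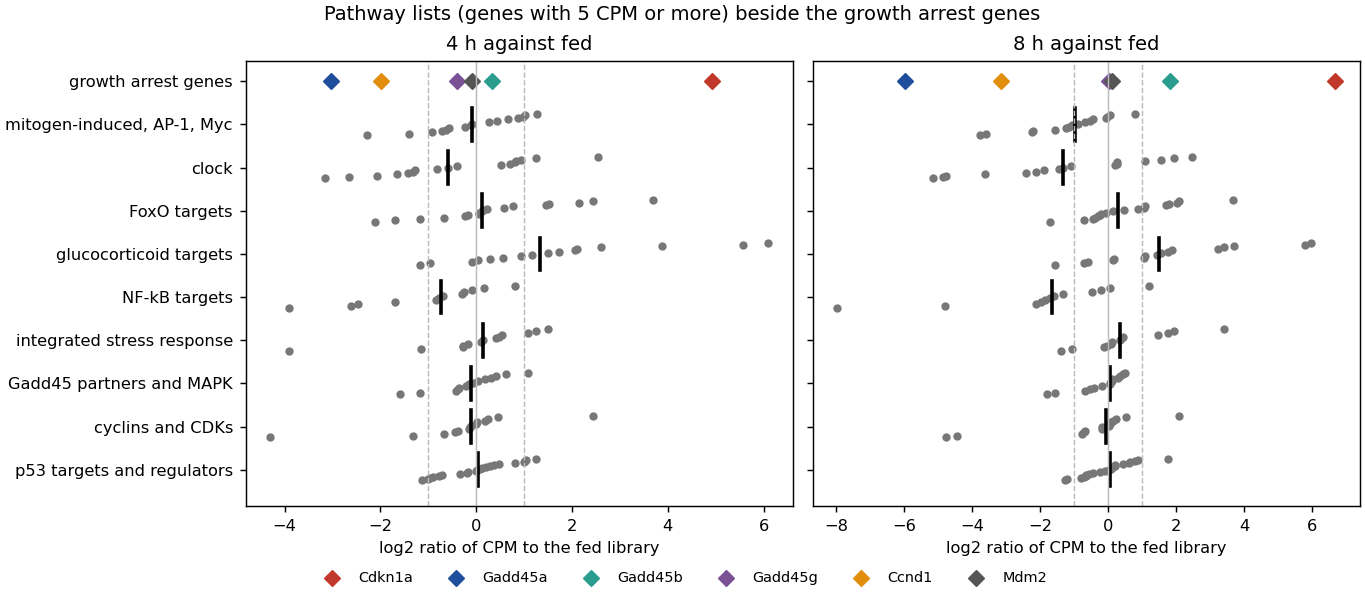
Log2 ratio to the fed library at 4 h and 8 h for the growth arrest genes (coloured diamonds) and for genes of 9 pathway lists at 5 CPM or more (grey points, without the growth arrest genes), with black bars at list medians and dashed lines at 2-fold. Cdkn1a lay at 4.93 and 6.67. The other p53 pathway genes centred near 0 and the glucocorticoid list at 1.33 and 1.497, and no pathway was tested as a cause.

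Lists for other pathways known to act on Cdkn1a or the Gadd45 genes were counted in the same way. Of the glucocorticoid targets, 9 of 16 were at least 2-fold higher at 4 h and 11 of 16 at 8 h, with 1 lower each time and median log2 ratios of 1.33 and 1.497. At 16 h 5 of 14 and at 24 h 8 of 16 were higher. The metallothionein Mt2 went from 27.1 CPM to 1839 CPM at 4 h, Fkbp5, a chaperone of the receptor, from 22.1 to 288 CPM at 8 h, and Zbtb16 from 4.21 to 61.5 CPM at 4 h. Of 18 FoxO targets, 5, 7, 4 and 4 were higher and 3, 1, 0 and 1 lower in the 4 fasted libraries. Igfbp1, the insulin-repressed binding protein, was at 21.4 CPM when fed and 276 CPM at 4 and at 8 h, and Bcl6 was lower at 4 h (19.3 to 4.44 CPM). Of the integrated stress response (13 genes measured at 4 and 8 h, 12 later), 3, 4, 2 and 1 were higher and 2, 2, 0 and 2 lower. Ddit4, an mTORC1 inhibitor, went from 5.29 to 56.1 CPM at 8 h, whereas Ddit3, the factor CHOP, was lower there (17.0 to 6.48 CPM).

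NF-kB targets past 2-fold were mostly lower: 4, 8, 2 and 5 of 12 in time order, with 1 higher at each time from 8 h on (Nfkbia). The chemokine Cxcl1 went from 133 to 0.532 CPM at 8 h. Markers of macrophages, which also carry NF-kB targets, summed to 59.0, 4.11, 0.473, 7.97 and 8.68 CPM over 12 genes, with 6 of them at 5 CPM in the fed library and 0 in the fasted ones. At 8 h 7 of them, Csf1r, Adgre1 and Clec4f included, were at 0. The 15 endothelial markers summed to 293, 166, 111, 326 and 170.04 CPM. Of these, 12 reached 5 CPM in the fed library, and 1, 1, 4 and 1 in the fasted ones in time order. The part of these cells in the counts of this paragraph was not tested. Among mitogen-induced genes, 2, 0, 2 and 0 of 16 were higher and 2, 8, 1 and 6 lower. Myc, a repressor of Cdkn1a, was at 35.6, 13.4, 2.63, 2.74 and 3.49 CPM, and Fos went from 8.26 to 0.680 CPM at 8 h. Clock genes (17 measured, 18 at 16 h) split, with 2, 4, 2 and 1 higher and 7, 10, 3 and 2 lower, the last at the clock hour of the fed library. Per2 was at 57.7, 9.09, 1.63, 9.43 and 17.9 CPM, and Nr1d1, the repressor REV-ERB alpha, at 14.1, 3.38, 3.22, 125 and 8.94 CPM.

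The cell cycle itself left little RNA. Of 22 S phase and mitosis genes 3 to 4 reached 5 CPM in a comparison with fed, and 0 were higher. Rrm2, a subunit of ribonucleotide reductase, was the single one lower at 4, 16 and 24 h (13.3 CPM fed, 5.97, 3.94 and 5.22 CPM), and at 12.7 CPM at 8 h it was past 2-fold above the 4 h library. Cdkn1a was the one CDK inhibitor changed at 4, 8 and 24 h, of 3 measured, and Cdkn2c the one at 16 h, of 2 (6.91 to 16.6 CPM). Cdkn1b, which encodes p27, was at 23.3, 24.4, 18.9, 35.2 and 20.4 CPM. Of 15 cyclins and CDKs, 1 was higher and 3 lower at 4 and at 8 h, 2 and 2 at 16 h, and 1 and 2 at 24 h. Ccng2, a growth-inhibiting cyclin and FoxO target, was higher at each time (6.93 CPM fed, 37.6, 29.3, 20.3 and 16.2 CPM). Ccnd2 went from 5.19 to 0.237 CPM at 8 h and Wee1, the kinase that restrains CDK1, from 30.1 to 1.09 CPM. Among the Gadd45 partners and their kinases, with 14 genes measured at 4 and 8 h and 13 later, 1, 0, 0 and 1 were higher and 2, 2, 0 and 2 lower. Map3k4, which Gadd45 proteins bind, was at 19.1, 17.1, 17.0, 14.7 and 16.3 CPM, a difference from fed whose sign turned with TMM scaling at 4 and 8 h. Map2k6, the kinase above p38, was higher at 4 and 24 h (6.80 CPM fed, 14.4 and 15.6 CPM), and the phosphatases Dusp1 (227 to 76.7 CPM) and Dusp10 (5.35 to 1.54 CPM) were lower at 8 h.

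Among 3289 genes at 50 CPM or more in some library, the 5 whose profile over the 5 libraries was most like that of Cdkn1a, by Pearson's r of log2(CPM + 5), were Ttc39c, Litaf, Nfil3, Ptpn11 and Prxl2a, with r from 0.998 to 0.994. Nfil3, a repressor in the clock, was at 15.9, 37.9, 61.2, 13.2 and 17.9 CPM, and Ttc39c at 174, 249, 313, 165 and 186 CPM. Both of them and Ptpn11 had the libraries in the order of Cdkn1a, whereas Litaf (75.7 and 76.3 CPM) and Prxl2a (83.5 and 84.9 CPM) were slightly lower at 0 than at 16 h. The 5 most like Gadd45a were Fbxw9, Myh9, Mdh1, Prpf4b and Maob, with r from 0.997 to 0.993. Myh9, the heavy chain of nonmuscle myosin, was at 119, 60.5, 47.2, 80.4 and 54.4 CPM. With 5 points per gene and this many genes, such values of r describe a ranking and have no test.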

How the data were processed

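The authors deposited UMI counts, not normalized, made with Cell Ranger 6.0.1 per the file headers, on mm10 per the submitters' processing notes. The authors' annotation release and strand setting are not given in the sources used here. A second deposited table gave each barcode's library, and 0 per-sample columns were left unused. Of 49740 distinct 16-base barcodes 259 occurred in more than 1 library, and 73 of 28737 among hepatocytes.

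A hepatocyte had 1000 UMIs and 500 genes or more and 2 to 30% mt- UMIs. No doublet caller was run, and an alternative left out the 10% of barcodes with most UMIs. Barcodes of another cell type had at least 3 markers and 0.5% of non-mitochondrial UMIs from that type's list (endothelial-like, 1%), thresholds set after seeing the data. Counts were summed per library. With 1 library per group no test was made: CPM has exact Poisson, shares Clopper-Pearson and ratios conditional binomial 95% intervals, which cover counting error only. Changed means 2-fold, with 5 CPM or more in either library. Thinning drew 1000 UMIs per cell with seed 1. The axis used z-scores of log Cyp2f2 minus log Cyp2e1 in 5 parts. Scaling factors of edgeR 4.0.16 (TMM) and DESeq2 1.42.0 (median of ratios) were alternatives, in R 4.3.3. Python 3.11.15 ran the rest, with scipy 1.17.1 for intervals, pandas 2.3.3 for tables and matplotlib 3.10.9 for figures. The interval and fold rules were tested on simulated data.

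The members, lists and rules were chosen with earlier results of these data known. Named genes were the members, up to 2 highest and 2 lowest past 2-fold per list and comparison, the fixed genes Trp53, Ccng1, Cdkn1b, Map3k4, Nr1d1 and Mt2, the axis genes, and the 5 genes most like Cdkn1a and Gadd45a. Promoter windows came from RefSeq (GRCm38.p6) and positions from GENCODE M21, in which 32235 of 32285 gene IDs were found. Protein sequences were not used here, and 1 clock gene is not reported here and was left out of its list.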

Additional observations from a re-analysis of the deposited data

Results flagged for a closer look

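Barcodes under 1% mt- UMIs, which the hepatocyte filter leaves out, carried Cdkn1a above the level of their fed counterparts at 4, 8 and 24 h. There were 1637, 4788, 522, 192 and 4398 such barcodes in time order, with median non-mitochondrial depths from 1142 to 2653 UMIs. Cdkn1a was at 1.31, 70.9, 127, 2.93 and 8.78 CPM in them. Against the fed barcodes of this kind, which held 4 Cdkn1a UMIs, the log2 ratios at 4, 8 and 24 h were 5.76, 6.60 and 2.74. The 16 h value rests on 1 UMI. From 4 to 8 h the level in these barcodes was 1.80-fold higher, and in hepatocytes 3.34-fold. In the 6441 barcodes under 1000 UMIs at 8 h Cdkn1a was at 116 CPM. What these barcodes hold was not tested.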

How the results depend on the processing

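No paired analysis was possible because each group has 1 library and no result comes from a test, so leaving out a replicate was not possible either. Of the values for single genes, axis ends, list counts and shares of cells, 16 turned direction, 929 moved beyond their counting interval (counts, by over 1.5 times) and 4007 did not. Turned means a change of sign in a ratio whose 95% interval excluded 0. Among ratios whose interval held 0, 95 of 467 values under the alternatives also had the other sign, such as Mdm2 at 4 h with TMM (0.12) and Gadd45b at 24 h with thinning (-0.73). The set's counts against fed were kept under the 12 alternatives run for them (cell filters, thinning, scaling, denominators and free RNA, all at the 5 CPM limit) except that 1 member was at least 2-fold higher at 16 h without genes above 1% of UMIs in the denominator (Gadd45b at the level limit). Between 4 and 8 h, 0 members were lower with all UMIs in the denominator (the log2 ratio of Gadd45a was still -2.79, under the level limit), and 1 was higher with at most 15% mt- UMIs. Over 12 alternatives the log2 ratio to fed of Cdkn1a ranged over 4.65 to 5.19 (4 h), 6.47 to 6.93 (8 h) and 1.34 to 1.75 (24 h), and that of Gadd45a over -6.08 to -5.74 (8 h).

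Counts at the axis ends moved most. Members higher at the Cyp2f2 end numbered 1 at 4 h with 0 to 30% mt- UMIs, 1 at 24 h with that filter, with at most 15% mt- UMIs, with thinning and with the landmark score, 1 at 0 h with the landmark score, and 2 at 8 h with thinning. Members higher at the Cyp2e1 end numbered 1 at 4 h with at most 15% mt- UMIs, with thinning and with 3 parts. At 24 h they numbered 0 with 0 to 30% mt- UMIs, and 1 with 3 parts, with the landmark score and without barcodes of other types. The 24 h log2 end ratio of Gadd45b stayed between -1.87 and -1.03 over 6 alternatives. Where its call was lost, the level limit of 5 CPM removed it.

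With 50 CPM in place of 5, all genes at least 2-fold higher numbered 169, 240, 99 and 199 at 4, 8, 16 and 24 h, and lower 176, 357, 121 and 317, since fewer genes were tested. TMM gave 531 and 838 higher and 361 and 676 lower at 4 and 8 h, and median-of-ratios scaling 743 higher at 8 h.

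The 16 ratios that turned were those of Map3k4 with TMM (0.0516 at 4 h, 0.0765 at 8 h), median-of-ratios (0.0282, 8 h) and thinning (0.425, 8 h), Dcxr with all UMIs in the denominator (-0.0150, 4 h) and Cdkn1b with a mean per cell (0.00749, 8 h). With at most 15% mt- UMIs Gadd45g was at 0.0417 for 24 against 16 h, and Txnip at -0.0871 for 16 h. Sgk1 was at 0.0243 for 24 h without barcodes of other types. Thinning to 1000 UMIs gave Gadd45g 0.0103 for 24 against 16 h, Arntl -0.29 at 24 h, Gdf15 -0.17 at 8 h and Klf6 -0.25 at 4 h. Thinning also turned the 8 h end ratios of Cdkn1a (-0.26), Gadd45b (1.003) and Ccnd1 (0.00268). Unless stated, the cause was not tested. Depth limits Gadd45a and Ccnd1 at 8 h, with 27 and 39 UMIs.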
